A study of Mus musculus with 6 samples.

Results

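The extracellular matrix genes described here are the 4 lecticans (Acan, Bcan, Ncan and Vcan), 3 link proteins (Hapln1, Hapln2 and Hapln4), the tenascins Tnr and Tnc, and Ptprz1, a receptor phosphatase with a secreted proteoglycan form. They were taken by gene symbol, and all 10 of 10 were found among the 56859 genes of the count table and passed the low-count filter, which left 17599 genes. RNA was sequenced from the spinal cord of wild-type mice whose cord had been contused at T10 and which were sampled at 6 weeks, all under 1 batch label. Mice of the injury + AZ876 group (n = 3) had been given AZ876, which activates the liver X receptors (LXR), at 5 mg/kg by daily intraperitoneal injection for 1 week after contusion. The injury group (n = 3) had the same contusion without AZ876, and per the protocols its controls were injected with solvent only. No uninjured cord was analysed here, so the values compare injured tissue with injured tissue. The labels do not say whether the replicates are separate animals, so p-values rest on the spread among these 6 libraries alone, and that spread may be technical.

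Lecticans are large core proteins that carry chondroitin sulfate chains, bind hyaluronan at their N-terminal end and bind tenascins at their C-terminal end. Link proteins lock that hyaluronan bond, and tenascin-R, a trimer, crosslinks the lecticans. Around fast-spiking interneurons and motor neurons these parts form perineuronal nets, and at nodes of Ranvier, the gaps between myelin segments, a related matrix rich in Hapln2 surrounds the axon. After spinal cord injury, astrocytes and oligodendrocyte precursors deposit neurocan, versican, brevican and tenascin-C in the glial scar, where the chondroitin sulfate chains are known to block axon growth. Acan, Hapln1, Hapln4, Tnr and Hapln2 are treated below as the perineuronal net and nodal members, and Ncan, Vcan, Bcan, Tnc and Ptprz1 as the glial scar members. The division is not clean, since brevican also sits in nets and at nodes and a versican isoform sits at nodes.

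The libraries held 14067649 to 20211175 counts. With p-values adjusted by Benjamini-Hochberg, 0 of the 17599 genes passed 0.05 in the quasi-likelihood test of edgeR (0%) and 0 in limma-voom, while DESeq2 called 178 (1.01%; 0.705% higher and 0.307% lower with AZ876). Without adjustment 2592 genes (14.7%) had a p under 0.05 in edgeR. On the first principal component, with 55.4% of the variance, AZ876 replicate 1 (−7.17) and injury replicate 3 (6.31) stood between the other AZ876 libraries (44.2 and 49.5) and the other injury libraries (−40.6 and −52.3). AZ876 replicate 1 lay nearer to the other injury libraries than injury replicate 3 did, so this component did not separate the groups. The tissue carried its defining markers in all 6 libraries: the 10 oligodendrocyte markers summed to 21187 to 26267 CPM (counts scaled to library size) with AZ876 and 27098 to 29436 CPM with injury, and the 10 neuron markers to 2086 to 4610 CPM with AZ876 and 4774 to 6232 CPM with injury.

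For all 5 net and nodal members the highest AZ876 library lay below the lowest injury library, while among the 5 scar members this held for Bcan alone. Acan, Hapln1 and Hapln4, called the net genes below, were at 44.7% to 48.8% of their injury level and Hapln2 at 61.4%. Tnr, which is also part of nets, was at 76.8%. Vcan and Ptprz1 were near their injury level, and Tnc was the 1 member with a higher mean with AZ876. None of the 10 members passed the test over all genes, so these are differences in level, without overlap between the groups for 6 genes, that edgeR did not call. Across all genes tested, 18.8% showed no overlap between the groups, 8.64% lower and 10.2% higher with AZ876. At an unadjusted p under 0.05, 6 members were lower and 0 higher, beside 6.74% and 7.98% of all genes.

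**Figure D1:**
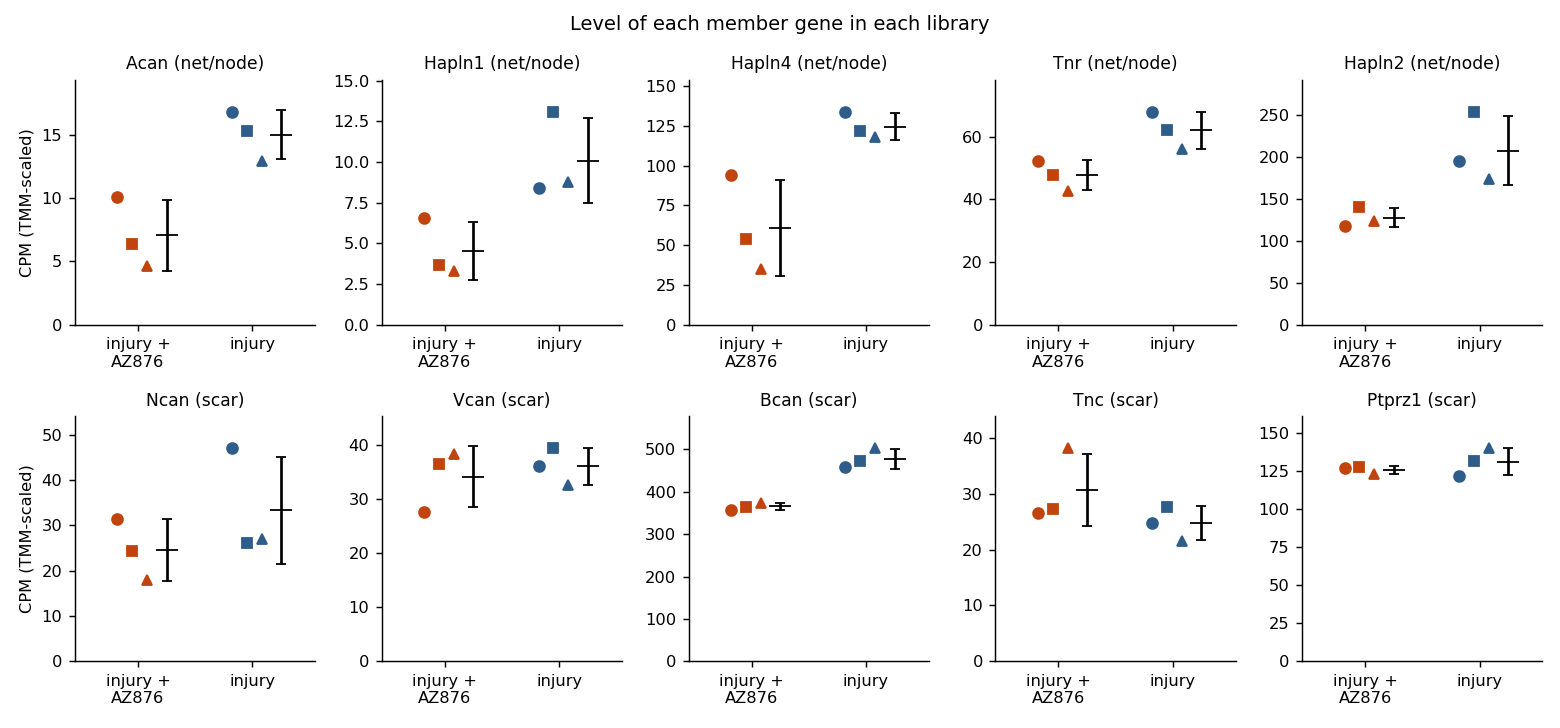
Level of each member in CPM (linear axis from 0) in the 3 injury + AZ876 libraries (left, red) and the 3 injury libraries (right, blue); circle, square and triangle are replicates 1, 2 and 3, and the black bar is the mean with its SD. The groups do not overlap for Acan, Hapln1, Hapln4, Tnr, Hapln2 and Bcan, and they overlap for Ncan, Vcan, Tnc and Ptprz1.

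Acan encodes aggrecan, the lectican that nets are built on. The table lists it as ENSMUSG00000030607 (plus strand of chromosome 7, 78703231 to 78764847) and, as for all gene positions below, names no genome build. Its level was 10.1, 6.39 and 4.66 CPM in AZ876 replicates 1, 2 and 3, against 16.8, 15.3 and 12.9 CPM in injury replicates 1, 2 and 3. Every AZ876 library was below every injury library, and AZ876 replicate 1 stood closest to the injury group. This is a log2 fold change of −1.09 ± 0.29 (SE, n = 3 each), for which edgeR gave an adjusted p of 0.330 and DESeq2 0.0400. A two-sided exact permutation test of log2 CPM gave p = 0.1, the smallest that 3 against 3 libraries allow. In bulk tissue such as this, fewer cells of a type and less RNA per cell cannot be told apart.

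Hapln1 encodes the link protein that stabilises aggrecan in nets and in cartilage (ENSMUSG00000021613, plus strand of chromosome 13, 89687915 to 89759771). It had 6.57, 3.65 and 3.32 CPM in the AZ876 libraries and 8.41, 13.1 and 8.78 CPM in the injury libraries. The groups did not overlap, although AZ876 replicate 1 was close to injury replicates 1 and 3. These values rest on 52 to 96 counts per library with AZ876 and 135 to 249 with injury, the fewest of all members. Its log2 fold change of −1.16 ± 0.32 (SE) was the most negative of the 10, and edgeR gave an adjusted p of 0.330.

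Hapln4, or Bral2, encodes the link protein that partners brevican at inhibitory synapses and in nets of the brain stem and cerebellum (ENSMUSG00000007594, plus strand of chromosome 8, 70536107 to 70543512). Its level was 93.9, 54.2 and 34.9 CPM in the AZ876 libraries and 134, 122 and 118 CPM in the injury libraries. The AZ876 libraries were spread out below the injury libraries, which lay close together, with SDs of 30.1 CPM for AZ876 and 8.18 CPM for injury. For the log2 fold change of −1.03 ± 0.32 (SE), edgeR gave an adjusted p of 0.330 and DESeq2 0.0751. Without AZ876 replicate 1, edgeR called all 3 net genes, with adjusted p-values of 0.0450 for Acan, 0.0479 for Hapln1 and 0.0444 for Hapln4. That fit called 1.64% of its genes lower and 0.351% higher, 299 and 64 genes. Leaving out any 1 of the other libraries gave no call for any member.

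Promoter windows are shown for Acan and Hapln1, the net genes with the lowest fold changes, and for Tnc, the scar gene with the opposite sign, as Acan correlated with Hapln1 and inversely with Tnc over the libraries. Each runs from 250 bases before to 50 after a RefSeq transcription start, on GRCm38.p6 and not on the build of the table, 5′ to 3′ on the gene's strand. Capitals mark GGGCGG, the GC box bound by Sp1, read on either strand.
Acan (chr7:79052976-79053275, plus strand): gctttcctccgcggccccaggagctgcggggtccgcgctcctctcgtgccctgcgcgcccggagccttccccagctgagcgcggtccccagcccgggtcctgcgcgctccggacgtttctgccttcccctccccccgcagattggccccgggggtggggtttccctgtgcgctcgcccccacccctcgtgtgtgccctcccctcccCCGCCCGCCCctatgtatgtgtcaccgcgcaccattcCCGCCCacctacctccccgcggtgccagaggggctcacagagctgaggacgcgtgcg
Hapln1 (chr13:89540386-89540685, plus strand): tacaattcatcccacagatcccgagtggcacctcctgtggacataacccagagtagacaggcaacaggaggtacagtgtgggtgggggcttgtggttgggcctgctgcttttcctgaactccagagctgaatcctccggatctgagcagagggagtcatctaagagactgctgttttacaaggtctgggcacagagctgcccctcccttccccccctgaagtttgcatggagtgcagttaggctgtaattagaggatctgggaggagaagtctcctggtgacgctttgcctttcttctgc
Tnc (chr4:64046887-64047186, minus strand): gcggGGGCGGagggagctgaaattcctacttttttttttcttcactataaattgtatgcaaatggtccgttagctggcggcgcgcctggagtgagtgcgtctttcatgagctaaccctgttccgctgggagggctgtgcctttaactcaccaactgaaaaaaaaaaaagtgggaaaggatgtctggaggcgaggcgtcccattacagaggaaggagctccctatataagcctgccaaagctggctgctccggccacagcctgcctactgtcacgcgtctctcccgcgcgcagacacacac
The Acan window was 74% G or C with 31 CpG dinucleotides, the Hapln1 window 54.3% with 3, and the Tnc window shown 54% with 16. A second Tnc window, at 47.3% with 10, overlaps the one shown, so the same motif matches count in both. The median of all 32851 windows was 52.7% with 7. The GC box was found in 7 of the 10 member windows, which cover 9 genes, and in 35.7% of all windows; Hapln4 had no window in the RefSeq table. A repeat of AGGTCA with 4 bases between its copies, a form of the element that LXR binds, was in 0 of the 10 member windows on either strand and in 0.0152% of all windows. Its half-site AGGTCA, which lies within the repeat, was in 0 of 10 and in 16.3% of all. The AP-1 motif TGANTCA was in 0 of 10 and in 7.81% of all, and the TATA box TATAAA in 3 of 10, both Tnc windows and that of Ncan, and in 13.6% of all. These are letter matches in short windows and say nothing of binding.

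Tnr encodes tenascin-R, made by oligodendrocytes and some neurons, which crosslinks lecticans in nets and at nodes (ENSMUSG00000015829, plus strand of chromosome 1, 159351339 to 159759299). It was at 52.3, 47.9 and 42.8 CPM in the AZ876 libraries and 68.0, 62.0 and 56.1 CPM in the injury libraries. The gap between the groups was narrow, with AZ876 replicate 1 just under injury replicate 3. For its log2 fold change of −0.38 ± 0.13 (SE), edgeR gave an adjusted p of 0.330.

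Hapln2, or Bral1, encodes the link protein that oligodendrocytes supply to nodes of Ranvier (ENSMUSG00000004894, minus strand of chromosome 3, 87929057 to 87934890). It had 118, 140 and 124 CPM in the AZ876 libraries, against 195, 254 and 174 CPM in the injury libraries. Here AZ876 replicate 1 was the lowest of all 6 libraries, unlike its place for the 3 net genes. A log2 fold change of −0.70 ± 0.16 (SE) resulted, with adjusted p-values of 0.330 in edgeR and 0.0288 in DESeq2. By unadjusted p, Hapln2 ranked 98th of the 17599 genes, the highest rank of any member. DESeq2 called 3 members at an adjusted p under 0.05, namely Acan, Hapln2 and Bcan, where it called 0.307% of all genes lower.

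Bcan encodes brevican, the main lectican of the adult nervous system, made by astrocytes, oligodendrocyte precursors and neurons (ENSMUSG00000004892, minus strand of chromosome 3, 87894838 to 87907537). Its level was 357, 365 and 374 CPM in the AZ876 libraries and 457, 472 and 502 CPM in the injury libraries. Both groups were tight, and the gap between them exceeded either spread. Its log2 fold change was −0.38 ± 0.11 (SE), and the adjusted p was 0.330 in edgeR and 0.0307 in DESeq2.

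Ncan encodes neurocan, a lectican that reactive astrocytes produce after injury (ENSMUSG00000002341, minus strand of chromosome 8, 70545735 to 70573523). It was at 31.5, 24.4 and 17.9 CPM in the AZ876 libraries and 47.0, 26.1 and 27.0 CPM in the injury libraries. The groups overlapped, and injury replicate 1 stood well above the rest: without it the log2 fold change of −0.44 ± 0.29 (SE) was −0.11.

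Vcan encodes versican, the lectican of oligodendrocyte precursors, fibroblasts and macrophages (ENSMUSG00000021614, minus strand of chromosome 13, 89803431 to 89890628). Its 27.6, 36.5 and 38.2 CPM in the AZ876 libraries overlapped with 36.0, 39.3 and 32.6 CPM in the injury libraries. Vcan's log2 fold change was −0.08 ± 0.16 (SE), in a 95% interval of −0.44 to 0.29, and changed sign without AZ876 replicate 1 (0.05). Ptprz1 binds tenascins and contactin-1 and has a secreted proteoglycan form, phosphacan (ENSMUSG00000068748, plus strand of chromosome 6, 22875501 to 23052915). It was at 127, 128 and 123 CPM with AZ876 and 122, 132 and 140 CPM with injury. Its log2 fold change of −0.06 ± 0.10 (SE) had a 95% interval of −0.30 to 0.18. These intervals still include modest changes in either direction.

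Tnc encodes tenascin-C, a hexameric glycoprotein that astrocytes, fibroblasts and Schwann cells make in wounds (ENSMUSG00000028364, minus strand of chromosome 4, 63878022 to 63965252). It had 26.6, 27.2 and 38.1 CPM in the AZ876 libraries and 24.8, 27.7 and 21.6 CPM in the injury libraries. AZ876 replicate 3 was high and the other AZ876 libraries lay among the injury libraries. Its log2 fold change was 0.31 ± 0.18 (SE; edgeR adjusted p 0.408, two-sided exact permutation p = 0.3), and without AZ876 replicate 3 it was 0.12.

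**Figure D2:**
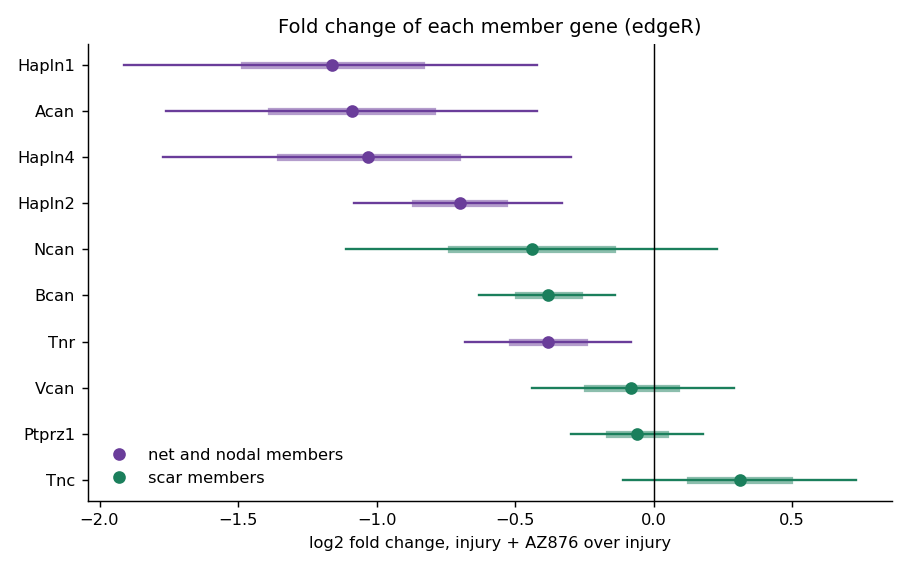
Log2 fold change of each member, injury + AZ876 over injury, from edgeR, with net and nodal members in purple and scar members in green; the thick bar is 1 SE and the thin line the 95% interval. Hapln1, Acan and Hapln4 lie near −1.1, and Tnc is the only member above 0.

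Set against each other, the net and nodal members were the lower group with AZ876. Their median log2 fold change was −1.03, with 5 of 5 negative, and that of the scar members was −0.08, with 4 of 5 negative. Over all genes tested the median was 0.00 and 49.5% were negative. The difference of the 2 medians was −0.96. It was −0.80 with Bcan moved to the net and nodal members, −0.80 with Ptprz1 left out and −0.74 with means in place of medians. Leaving out AZ876 replicate 3 made it −0.59, and leaving out AZ876 replicate 1 made it −1.38.

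The same contrast was computed in each library from log2 CPM centred on each gene's mean, as the median of the net and nodal members minus that of the scar members. It was 0.04, −0.62 and −0.89 in AZ876 replicates 1, 2 and 3, and 0.31, 0.57 and 0.41 in injury replicates 1, 2 and 3. The groups did not overlap, and AZ876 replicate 1 was nearest to the injury libraries. In the pair of lecticans Acan and Vcan, there were 0.366, 0.175 and 0.122 Acan counts for each Vcan count in the AZ876 libraries, against 0.466, 0.390 and 0.397 in the injury libraries. In the pair of tenascins, there were 1.97, 1.76 and 1.12 Tnr counts per Tnc count with AZ876 and 2.74, 2.24 and 2.60 with injury. Neither ratio overlapped between the groups. Ratios of Hapln4 to Ncan, Hapln1 to Vcan and Hapln2 to Bcan were computed too, and all overlapped. In that order their means were 2.38, 0.142 and 0.349 with AZ876 and 3.97, 0.279 and 0.437 with injury. The pairs shown by library were picked with the values known, and the ratios were not tested.

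The net genes moved with markers of neurons. All 7 markers of fast-spiking and net-bearing neurons had a negative log2 fold change (median −0.91), 4 of them without overlap between the groups, and their summed level was 455 to 929 CPM with AZ876 and 1153 to 1378 CPM with injury. Pvalb, the parvalbumin gene, picked after its values were seen, was at 49.3, 31.3 and 39.3 CPM with AZ876 and 85.1, 84.7 and 60.8 CPM with injury. Of the 10 general neuron markers all were negative (median −0.75), as were all 6 motor neuron markers (median −0.51), although the summed motor neuron level overlapped, at 61.3 to 154 CPM with AZ876 and 144 to 162 CPM with injury. In edgeR 0 of these markers passed the test over all genes. DESeq2 called 3 of the 7 fast-spiking and net-bearing neuron markers lower, with an adjusted p of 0.0131 for Pvalb, 1 of the 10 general ones and 0 of the 6 motor neuron ones. Over all genes DESeq2 called 0.307% lower, and 8.64% were lower without overlap between the groups. None of the markers was at 0 in any library.

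Acan was then set against those neurons. Per 1000 CPM of the summed fast-spiking and net-bearing neuron markers, it had 10.9, 11.1 and 10.2 CPM in the AZ876 libraries and 12.9, 11.1 and 11.2 CPM in the injury libraries, and the groups overlapped. On that scale the log2 differences were −0.13 for Acan, −0.17 for Hapln1 and −0.12 for Hapln4, against −1.09, −1.16 and −1.03 per library size, and all 3 overlapped. Per general neuron markers they were −0.26, −0.31 and −0.26, and of the 3 genes Acan alone did not overlap (2.18 ± 0.0590 CPM with AZ876 and 2.62 ± 0.141 CPM with injury per 1000 marker CPM, SD, n = 3 each). Per motor neuron markers, the other net-bearing cells, the log2 differences were larger, at −0.57 for Acan, −0.62 for Hapln1 and −0.57 for Hapln4, and again Acan alone did not overlap. Scaled to astrocyte markers the same 3 genes kept log2 differences of −1.12, −1.16 and −1.11 with no overlap. Tnr, also part of nets, was higher with AZ876 per fast-spiking and net-bearing neuron markers, without overlap (log2 difference 0.65). This was not particular to Tnr. Per the same markers Vcan (0.94), Tnc (1.33) and Ptprz1 (0.97) were higher without overlap, and Ncan (0.61), Bcan (0.64) and Hapln2 (0.34) higher with overlap. What part the neuron content of the samples had in the lower net genes was not tested. The ratios are no test of it, since dividing by markers that were also lower shrinks a difference in any case.

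Oligodendrocyte markers summed to a level 0.828 times as high with AZ876, without overlap. Mbp, the myelin basic protein gene, made up most of that sum, at 13033 ± 1617 CPM with AZ876 and 16087 ± 926 CPM with injury. Of the 10 markers 3 were lower without overlap, beside 8.64% of all genes, and 2 were positive. The mean centred log2 CPM of the 10 markers overlapped between the groups. Per summed oligodendrocyte markers Hapln2 remained lower in every AZ876 library (5.43 ± 0.383 CPM with AZ876 and 7.31 ± 1.47 CPM with injury per 1000 marker CPM, a log2 difference of −0.41). Tnr and Bcan overlapped on that scale, with log2 differences of −0.10 and −0.11. Per astrocyte markers, whose sums overlapped at 5890 to 6708 CPM with AZ876 and 5901 to 7338 CPM with injury, Bcan was at 58.1 ± 2.41 CPM with AZ876 and 74.0 ± 4.90 CPM with injury per 1000, still without overlap. The sums of the 7 oligodendrocyte precursor markers, 277 to 323 CPM with AZ876 and 278 to 323 CPM with injury, overlapped. These markers were mixed, with 4 positive and 3 negative. Only Olig2 did not overlap, at 42.7 ± 4.39 CPM with AZ876 and 56.5 ± 5.37 CPM with injury. Of the node and paranode scaffold, 6 of 7 genes were negative, with 3 lower and 1 higher without overlap. Of all genes 8.64% were lower and 10.2% higher without overlap. Both extremes of that list are named after their values were seen. Sptbn4, the beta-IV spectrin gene of nodes, was at 51.6 ± 21.5 CPM with AZ876 and 111 ± 36.0 CPM with injury. Gldn, the gliomedin gene, which Schwann cells express at nodes of peripheral nerve, was at 25.7 ± 2.32 CPM with AZ876 and 14.2 ± 3.51 CPM with injury (log2 fold change 0.86 ± 0.20, SE; adjusted p 0.330 in edgeR and 0.0318 in DESeq2).

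**Figure D3:**
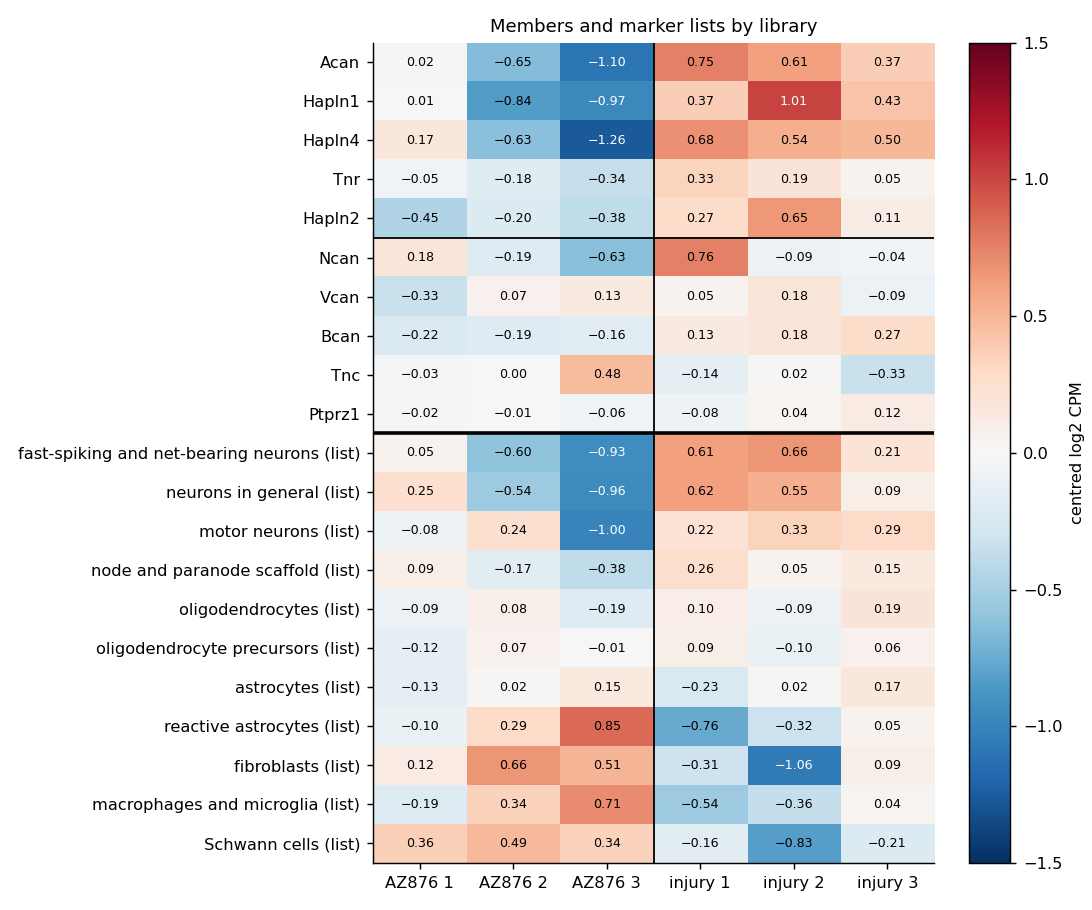
Centred log2 CPM of each member (upper rows) and mean centred log2 CPM of each marker list (lower rows) in the 6 libraries, injury + AZ876 on the left and injury on the right; red is above and blue below the mean of the row. In Acan, Hapln1, Hapln4 and the fast-spiking and general neuron lists, AZ876 replicate 1 is the highest and replicate 3 the lowest of the AZ876 libraries; in the motor neuron list replicate 2 is the highest.

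All 10 reactive astrocyte markers had a positive log2 fold change (median 0.54), but the groups overlapped for each of them. Their sums overlapped too, at 9548 to 17447 CPM with AZ876 and 9733 to 13351 CPM with injury. Gfap made up most of these sums, at 9742 ± 2601 CPM with AZ876 and 9087 ± 1395 CPM with injury (log2 fold change 0.10 ± 0.23, SE). All 10 fibroblast markers (median 0.75) and all 8 Schwann cell markers (median 0.68) were positive, both without overlap of their sums. The fibroblast sums were 2527 to 3667 CPM with AZ876 and 869 to 2269 CPM with injury, and the Schwann cell sums 2806 to 3230 CPM with AZ876 and 1168 to 2326 CPM with injury. All 10 macrophage and microglia markers were positive too (median 0.60), with overlapping sums of 4575 to 12228 CPM with AZ876 and 3152 to 6183 CPM with injury. In edgeR 0 of these markers passed over all genes. DESeq2 called 3 of the 8 Schwann cell markers higher (Ncmap, Scn7a and Ngfr), 1 fibroblast marker (Mgp), 1 macrophage marker (Mrc1) and 0 reactive astrocyte markers. Of all genes it called 0.705% higher. Tnc was highest in AZ876 replicate 3, the library with the highest reactive astrocyte and macrophage sums. Their part in the Tnc level was not tested.

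**Figure D4:**
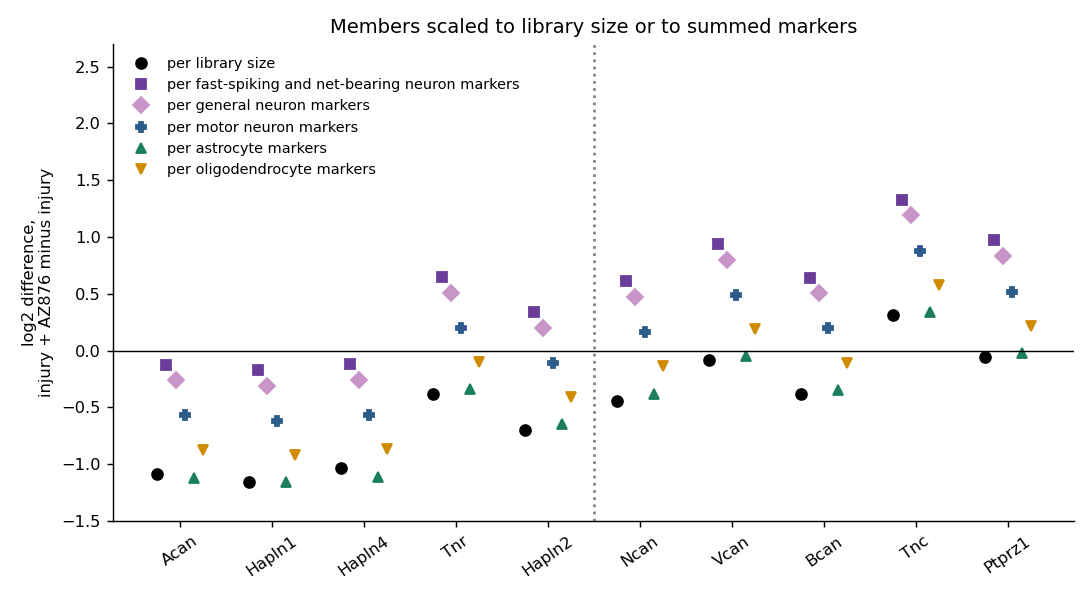
Log2 difference of each member, injury + AZ876 minus injury, when its level is scaled to library size (black, edgeR fold change) or divided by the summed CPM of a marker list (coloured, mean log2 ratio). Acan, Hapln1 and Hapln4 lie between −0.31 and −0.12 per fast-spiking or general neuron markers, between −0.62 and −0.57 per motor neuron markers and near −1.1 per library size, and Tnc reaches 1.33 per fast-spiking and net-bearing neuron markers.

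Levels were compared between genes per exon length, as TPM (counts per transcript length, scaled to the same total in every library), with summed exon lengths from GENCODE M21. Bcan was the most abundant member, at 285 ± 13.9 TPM with AZ876 and 382 ± 17.0 TPM with injury (SD, n = 3 each), followed by Hapln2 at 171 ± 18.9 TPM with AZ876 and 284 ± 50.3 TPM with injury and Hapln4 at 50.4 ± 27.9 TPM with AZ876 and 104 ± 11.0 TPM with injury. Ptprz1 was next at 28.1 ± 2.52 TPM with AZ876 and 30.0 ± 1.52 TPM with injury, and the ranges of Hapln4 and Ptprz1 overlapped with AZ876 but not with injury. Tnr (11.8 ± 2.01 TPM with AZ876 and 15.7 ± 2.07 TPM with injury), Ncan (11.0 ± 3.75 TPM with AZ876 and 15.2 ± 6.09 TPM with injury) and Tnc (12.4 ± 1.71 TPM with AZ876 and 10.3 ± 1.20 TPM with injury) formed a middle set. All 3 ranges overlapped with AZ876, and with injury those of Tnr and Ncan overlapped while Tnc lay below both. Vcan (7.44 ± 0.877 TPM with AZ876 and 8.10 ± 0.721 TPM with injury), Acan (3.05 ± 1.40 TPM with AZ876 and 6.56 ± 1.04 TPM with injury) and Hapln1 (2.47 ± 1.13 TPM with AZ876 and 5.54 ± 1.22 TPM with injury) were the lowest. The ranges of Acan and Hapln1 overlapped in both groups, and those of Vcan and Acan with injury only.

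Within the families, brevican made up nearly all lectican message: 93.0% ± 1.06 of the 4 lecticans' summed TPM with AZ876 and 92.8% ± 1.66 with injury. Acan was 0.982% ± 0.399 of it with AZ876 and 1.59% ± 0.252 with injury. Among the 3 link proteins Hapln2 held 77.2% ± 9.49 with AZ876 and 72.0% ± 3.74 with injury, and Hapln4 held 21.7% ± 9.16 with AZ876 and 26.6% ± 3.89 with injury. All of these shares overlapped between the groups. Of the 2 tenascins, Tnc was 45.7%, 48.4% and 59.6% of their summed TPM in the AZ876 libraries and 37.6%, 42.5% and 38.9% in the injury libraries, without overlap; it exceeded Tnr in AZ876 replicate 3 alone.

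Lectican and link protein genes lie side by side in the genome, and in the table each such pair has 0 other protein-coding genes between its members. Hapln4 and Ncan face each other tail to tail on chromosome 8 with 2222 bases between them, Hapln1 and Vcan likewise on chromosome 13 with 43659 bases, and Bcan and Hapln2 lie on the same strand of chromosome 3 with 21519 bases. The log2 fold changes of neighbours were −1.03 for Hapln4 and −0.44 for Ncan, −1.16 for Hapln1 and −0.08 for Vcan, and −0.70 for Hapln2 and −0.38 for Bcan. Acan abuts Hapln3, the link protein gene expressed mainly outside the nervous system, with 2 bases between their listed ends. Hapln3 was at 1.38 ± 0.271 CPM with AZ876 and 1.41 ± 0.0775 CPM with injury, and the strand setting of the counting is not known here, so reads of the abutting ends could not be assigned with certainty.

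Among genes that build, bind or cut this matrix, the direction varied by list. In edgeR 0 genes of any of the lists below passed over all genes. Of 21 genes of chondroitin sulfate chain synthesis, 15 had a positive log2 fold change (median 0.17), 2 higher and 0 lower at an unadjusted p under 0.05. Those 2 of 21 are close to the 7.98% of all genes that were higher at this threshold. Higher counts of the lists below also stand against this share, and lower counts against 6.74%. Dse, whose epimerase turns chondroitin into dermatan sulfate, was at 30.4, 33.6 and 38.8 CPM with AZ876 and 15.0, 8.14 and 22.1 CPM with injury, without overlap (log2 fold change 1.19 ± 0.32, SE; adjusted p 0.330 in edgeR and 0.0483 in DESeq2). Chsy1, a chondroitin synthase gene, was at 20.0 ± 3.67 CPM with AZ876 and 12.9 ± 2.51 CPM with injury. Chst11 and Chst3, whose sulfotransferases place sulfate at different positions of the chain, fall outside the naming rule. Chst11 was at 74.2 ± 11.9 CPM with AZ876 and 65.9 ± 4.61 CPM with injury, with overlap, and Chst3 at 12.5 ± 0.353 CPM with AZ876 and 11.0 ± 0.762 CPM with injury, without overlap.

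Hyaluronan genes had 9 of 12 members positive (median 0.47), 3 higher at an unadjusted p under 0.05. Cd44, the main cell-surface hyaluronan receptor and one of the reactive astrocyte markers, was at 98.1, 146 and 190 CPM with AZ876 and 71.3, 66.5 and 112 CPM with injury, and the groups overlapped. Has2, a hyaluronan synthase gene, was scarce, at 1.55 ± 0.473 CPM with AZ876 and 0.663 ± 0.389 CPM with injury. On the receptor side all 5 neuronal receptors for chondroitin sulfate proteoglycans were negative (median −0.28), with Ptprd at 112 ± 12.7 CPM with AZ876 and 139 ± 4.51 CPM with injury and Ptprs, the phosphatase through which the chains inhibit growth cones, at 222 ± 29.8 CPM with AZ876 and 288 ± 50.7 CPM with injury. Of the 5 tested integrin chains that bind tenascin-C all were positive (median 0.44). Itgb1 was at 284 ± 31.0 CPM with AZ876 and 183 ± 37.0 CPM with injury and Itga8 at 6.17 ± 1.28 CPM with AZ876 and 4.46 ± 0.752 CPM with injury, while Itgb6 had too few counts to test.

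Partners of Ptprz1 were split, with 2 of 6 positive and 4 negative. Ptn, which encodes pleiotrophin, the growth factor that inactivates the phosphatase, was at 353, 450 and 343 CPM with AZ876 and 205, 169 and 273 CPM with injury, without overlap (log2 fold change 0.82 ± 0.20, SE). Its DESeq2 adjusted p was 0.0342 and its edgeR adjusted p 0.330. Nfasc, the neurofascin gene of nodes and paranodes, and a node marker above, was at 454, 457 and 472 CPM with AZ876 and 582, 578 and 563 CPM with injury, also without overlap.

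Lectican-cleaving proteases and their inhibitor had 6 of 10 members positive (median 0.08), with 3 higher and 0 lower at an unadjusted p under 0.05. Adamts4 and Adamts5, the aggrecanases, which fall outside the naming rule, had log2 fold changes of −0.26 ± 0.25 and 0.14 ± 0.13 (SE, Adamts4 and then Adamts5), and the AZ876 and injury libraries overlapped for both. Mmp2, a gelatinase gene, was at 26.6 ± 5.20 CPM with AZ876 and 13.1 ± 4.67 CPM with injury and Timp3, an inhibitor of ADAMTS proteases, at 181 ± 9.95 CPM with AZ876 and 144 ± 13.7 CPM with injury, both without overlap. Mmp3, the stromelysin-1 gene, which was named after its values were seen, was at 10.3, 49.3 and 38.3 CPM with AZ876 and 0.342, 1.31 and 11.3 CPM with injury. Its groups overlapped through AZ876 replicate 1 and injury replicate 3. Other proteoglycans had 5 of 9 positive (median 0.09), with 4 higher and 2 lower at an unadjusted p under 0.05. Cd74, an MHC class II chaperone that can carry chondroitin sulfate, was at 288 ± 33.1 CPM with AZ876 and 119 ± 33.9 CPM with injury (adjusted p 0.330 in edgeR and 0.00104 in DESeq2), and Srgn, which encodes serglycin of leukocyte granules, at 74.2 ± 18.5 CPM with AZ876 and 41.0 ± 10.6 CPM with injury. Of the relatives outside the members, Tnxb was at 76.2 ± 2.79 CPM with AZ876 and 57.4 ± 25.2 CPM with injury, and Tnn had too few counts to test.

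**Figure D5:**
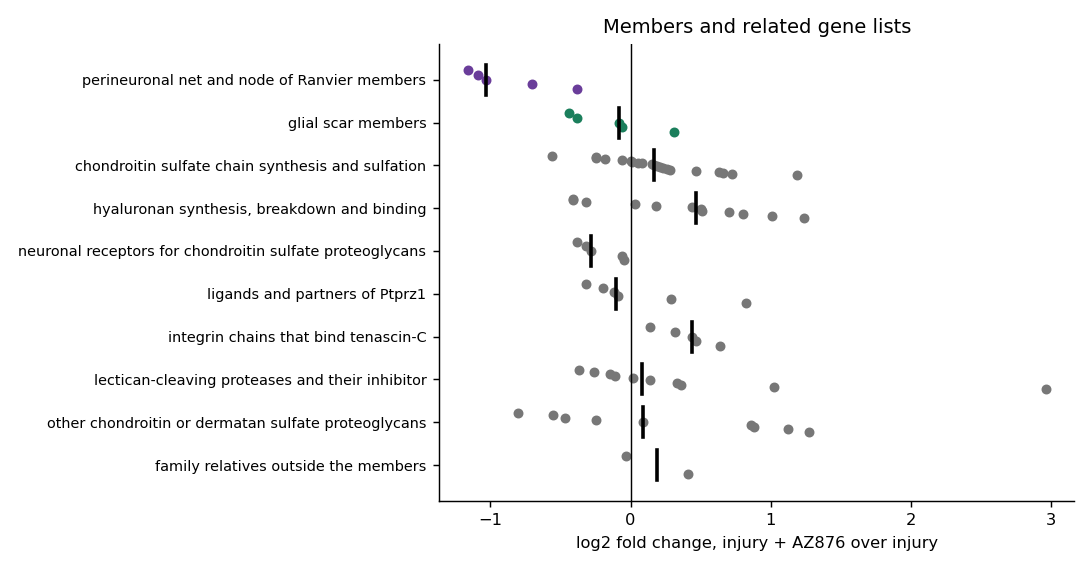
Log2 fold change, injury + AZ876 over injury, of the members and of each tested gene of the related lists; each point is a gene and the black bar is the median of its list. The net and nodal members have a median of −1.03, and the medians of the other lists lie between −0.28 and 0.47.

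Over the 6 libraries Acan varied most like Carmil2, Chga and Tlcd3b, with Pearson correlations of log2 CPM of 0.999, 0.999 and 0.998. In all, 1267 of 12434 genes with a mean of at least 5 CPM correlated with Acan above 0.9. For Tnc the nearest genes were Nipbl, Mgmt and Zfp958 (0.975, 0.968 and 0.967), and 58 genes were above 0.9. Among the members, Acan correlated at 0.99 with Hapln4, 0.94 with Hapln1, 0.97 with Tnr, 0.76 with both Hapln2 and Bcan, and −0.75 with Tnc. All genes were measured in the same 6 libraries, which differed in depth and in marker sums, so these values describe the libraries and carry no test.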

How the data were processed

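Per the labels' protocols, total RNA was isolated with magnetic beads and made into libraries with an MGI DNBSEQ kit. fastp 0.23.0 and HISAT2 2.1.0 appear in the submitters' processing notes; genome build, annotation, counter and strandedness: not given in the sources used here. The deposited table holds raw read counts per gene as the authors made them, 1 column per library. Columns were matched by library name. Of 57010 lines, 148 symbols stood on more than 1 with identical counts, and 1 was kept. Genes passing edgeR's filterByExpr were scaled by TMM and tested across all genes in edgeR 4.0.16 under R 4.3.3 (glmQLFit, robust, and glmQLFTest). Benjamini-Hochberg adjustment and a threshold of 0.05 were used. DESeq2 1.42.0 and limma-voom (limma 3.58.1) were alternatives. All 3 were checked on simulated data for recovery of set fold changes. That check does not show why their numbers of calls differed here. SEs were derived from the log2 fold change and its F value. CPM use TMM-scaled library sizes; log2 CPM use a prior count of 2. Of 51970 genes matched to GENCODE M21, 2.80% had the table's start, so gene positions are the table's own and only exon lengths came from GENCODE. The members and lists were chosen with earlier results of these data known. Named besides the members are the 2 genes of smallest p of each related list, and for Acan and Tnc the 3 most correlated genes; others are said to fall outside this rule or are markers. Alternatives were another scaling, no filter, a replicate block and leaving out each library; marker-scaled levels and a second gene length were added after seeing the data. Libraries differed by 13.1 to 120 chi-square units per degree of freedom, so none was a copy. The closest pair, at 13.1, crossed the groups: AZ876 replicate 1 and injury replicate 3.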

Additional observations from a re-analysis of the deposited data

How the results depend on the processing

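Of 110 recomputed member fold changes (10 members under 11 alternatives), 103 kept their direction and their side of the threshold, 6 passed it and 1 changed sign. With DESeq2, Acan (−1.10), Hapln2 (−0.71) and Bcan (−0.39) passed. Leaving out 1 library each gave ranges of −1.45 to −0.86 for Acan, −1.54 to −0.93 for Hapln1 and −1.49 to −0.75 for Hapln4, which passed without AZ876 replicate 1 only, and of −0.16 to 0.05 for Vcan, positive without AZ876 replicate 1 (0.05). The net minus scar difference ranged from −1.38 to −0.59 over the same 6 fits. Over all genes, edgeR called 6 genes (6 higher) with no low-count filter, and DESeq2 called 178 (124 higher, 54 lower). Leaving out 1 library gave 0 to 363 calls, 0 to 64 of them higher and 0 to 299 lower, the highest without AZ876 replicate 1, and 986 to 4634 genes at an unadjusted p under 0.05. The cause of these shifts was not tested. Same-numbered replicates deviated together with correlations of 0.39, −0.14 and 0.32, and not every library correlated best with its own number. The labels name no pairing, and so few correlations cannot show whether the numbers pair the libraries. With the replicate number as a block, edgeR called 2 genes (2 higher) and 3973 had an unadjusted p under 0.05. In that fit 0 members passed, and the edgeR adjusted p of Acan, Hapln4 and Hapln2 was 0.0677. With the longest protein-coding transcript as length, each member kept the rank it had by exon length within each group, and the injury level of Hapln4 was 85.0 TPM and that of Ptprz1 40.4 TPM. Hapln1 rests on the fewest counts of the members.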
